A study of Mus musculus with 6 samples.

Results

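Srebf2, Hmgcs1, Idi1, Fdps, Sqle, Cyp51 and Sc4mol were followed here as transcripts of cholesterol synthesis and of its regulator SREBP2.
They were taken from a list of names chosen with earlier results of these data known, so counts over the list are description only. They make up 7 of the 20416 genes that have a probe set on the array.
None of the 7 is itself a gene of LDL uptake, so the data below are on sterol synthesis and its control.
The samples were hepatocytes from adult C57BL/6 mice, 3 that carried an inducible miR-143 allele (miR-143DOX) and 3 wildtype littermates (control), read on 1 Affymetrix array per animal.
Both groups drank doxycycline at 4 mg/ml in 10% sucrose for 8 days, so the drug and the sugar were shared and the allele was the labelled difference.
The promoter that drives the allele, the cells in which it is active and the level of miR-143 reached are not stated in the labels.
The question put by the comparison is which hepatocyte transcripts differ when miR-143 is induced.

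Cholesterol is built from acetyl units in a long series of steps in the cytosol and the endoplasmic reticulum, and the liver is a main site of that synthesis.
The early steps make mevalonate and join isoprene units into farnesyl diphosphate, and the late steps close the rings of squalene and trim lanosterol to cholesterol.
SREBP2 is a transcription factor held in the membrane of the endoplasmic reticulum while sterols are plentiful, and cut free to enter the nucleus and raise the transcription of these enzymes when sterols are low.
It acts on promoters together with the factors NF-Y and Sp1, whose boxes often lie near its own binding site, the sterol regulatory element.

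RefSeq promoters (GRCm38.p6, 250 bases before to 50 after the start of transcription) were at hand for 5 of the 7 genes, Srebf2, Hmgcs1, Cyp51, Sc4mol (named Msmo1 there) and Idi1.
Stretches of 30 bases are shown because their letters match, in full or in a shortened form, motifs known for SREBP2 and NF-Y.
For the first 3, the capitals mark TCACNCCA, a shortened form of the sterol regulatory element TCACNCCAC that was chosen after the promoters were read. For the last 2 they mark the NF-Y box CCAAT, which reads ATTGG on the opposite strand.
Srebf2, chr15:82147096-82147125, plus strand: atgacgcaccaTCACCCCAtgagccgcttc
Hmgcs1, chr13:119690203-119690232, plus strand: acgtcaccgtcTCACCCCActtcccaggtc
Sc4mol, chr8:64733737-64733766, minus strand: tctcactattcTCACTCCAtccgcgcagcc
Cyp51, chr5:4104710-4104739, minus strand: ccgctgtccgccaCCAATctggtcctgaga
Idi1, chr13:8885548-8885577, plus strand: ttgcctccagctgATTGGcgagcccgggca
The shortened form begins 162 bases before the start in Srebf2, 137 in Hmgcs1 and 177 in Sc4mol.

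All motifs were searched on both strands, and the share of the 27025 genes with a RefSeq promoter that held the same letters is given beside each.
TCACNCCAC was in 1 of the 5 promoters, that of Hmgcs1, against 1.44% of all genes, and so was its overlapping core CACCCCAC, against 3.3%.
The shortened TCACNCCA was in 3 of 5, against 4.97%. It was chosen after these same promoters were read, so no conclusion can be drawn from that comparison.
The NF-Y box CCAAT was in 5 of 5, against 41.1%, and the Sp1 box GGGCGG in 5 of 5, against 38.2%.
The E-box-like form TCACGTGA was in 0 of 5, against 1.12%.
Hmgcs1 held 4 NF-Y boxes, Sc4mol 3, Idi1 2, and Srebf2 and Cyp51 1 each.
These matches describe the letters of the promoters and were not tied to binding in these animals.

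Across the 7 genes, the late enzymes Sqle, Cyp51 and Sc4mol stood lower in miR-143DOX hepatocytes, at 0.73 to 0.79 times the control level, and Srebf2 stood at 0.86 times.
The early enzymes Hmgcs1, Idi1 and Fdps lay within 0.11 (log2) of control.
No gene passed the test. In limma's moderated test, adjusted over all 15312 genes, 0 of the 7 passed a false discovery rate (FDR) of 5%, as did 0 of all genes (0%), with 469 genes at an unadjusted p under 0.05.
By that weaker measure 3 of the 7 lay lower, against 1.68% of all genes tested, and 0 lay higher, against 1.38%.
Of the 7 differences 5 lay below 0 and 2 above, where 52.4% of all genes lay above.
Their median was -0.21 (log2, miR-143DOX minus control), beside a median of 0.01 over all genes tested.
All values below are log2 intensities averaged over the probe sets of a gene, and levels of different genes cannot be set against each other.

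**Figure D1:**
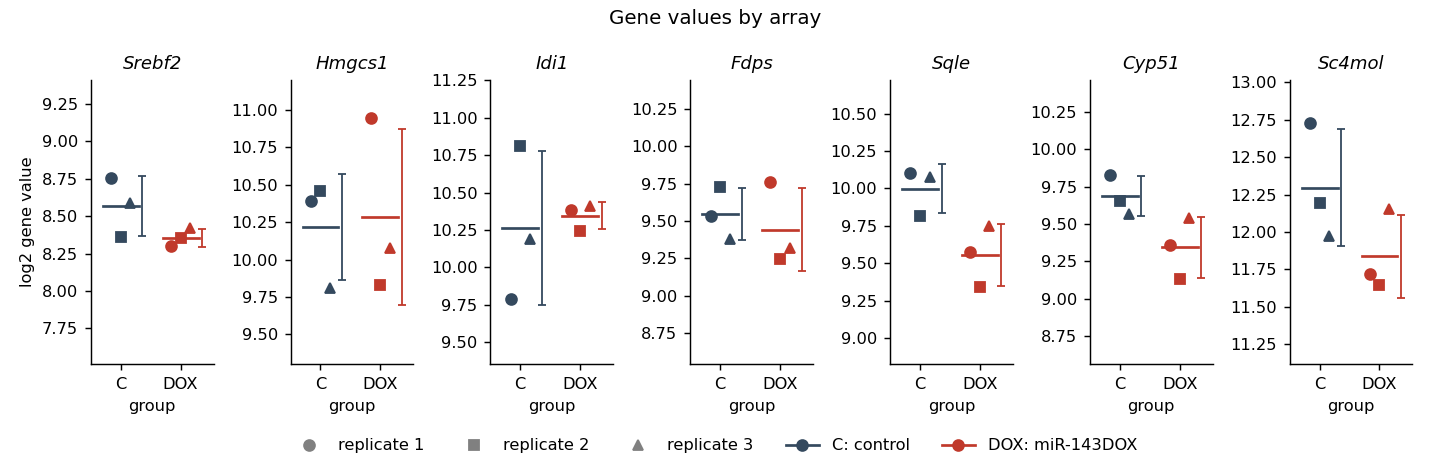
Log2 gene value in each array (vertical axis, each panel spanning the same range of log2 units about its own centre) for control (C) and miR-143DOX (DOX) mice, with the symbol giving the replicate, the horizontal line the group mean and the bar the SD (n = 3). Control and miR-143DOX arrays do not overlap for Sqle and Cyp51, while for Hmgcs1 miR-143DOX replicate 1, at 10.95, lies above all other arrays.

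Srebf2, which encodes SREBP2, measured 8.30, 8.35 and 8.42 in miR-143DOX replicates 1, 2 and 3 and 8.76, 8.36 and 8.59 in control replicates 1, 2 and 3.
Control replicate 2 lay among the transgenic arrays, and the other 2 control arrays lay above them.
The difference was -0.21 with a 95% interval of -0.52 to 0.10.
SREBP2 is controlled largely by cutting of the protein, which an array of transcripts does not read.
Srebf2 had 25 probe sets, the most of the 7, of which 21 differed in the downward direction.
Among them 8 were lower without overlap between the groups, where 4.57% of all probe sets with 1 gene symbol were, and 0 were higher without overlap, where 4.52% of all were.
In 1 probe set control replicate 2 read 6.04, while the other 5 arrays read at least 8.09.
Leaving out probe sets with such a gap, a setting chosen after seeing the data, moved control replicate 2 to 8.46, above the highest transgenic array at 8.43, and the difference to -0.24.
With the median over its probe sets Srebf2 differed by -0.36, with its brightest probe set alone by -0.07 and without control replicate 1 by -0.12.

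The early enzymes overlapped between the groups.
Hmgcs1, the cytosolic synthase that makes HMG-CoA at the entry to the pathway, measured 10.95, 9.83 and 10.08 in miR-143DOX replicates 1 to 3 and 10.39, 10.46 and 9.81 in control replicates 1 to 3.
The highest of the 6 arrays and the one next to lowest were both transgenic, and the spread was 10.29 ± 0.59 against 10.22 ± 0.35 (SD, n = 3 each).
The difference was 0.07 with a 95% interval of -0.51 to 0.64. Its sign rested on single animals. Leaving out miR-143DOX replicate 1 turned it to -0.27 and leaving out control replicate 3 to -0.14, while it grew to 0.29 and 0.17 when transgenic replicates 2 and 3 were dropped in turn, and to 0.15 and 0.18 when control replicates 1 and 2 were.
Its brightest probe set read 12.97 in miR-143DOX replicate 1 and 11.60 to 12.42 in the other arrays. Of its 13 probe sets 10 differed upward, and the largest difference, 0.47, was in the dimmest of them.

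Fdps, the synthase that joins isoprene units into farnesyl diphosphate, measured 9.76, 9.25 and 9.32 in miR-143DOX and 9.53, 9.73 and 9.38 in control replicates 1 to 3.
As with Hmgcs1, miR-143DOX replicate 1 was the highest array and miR-143DOX replicate 2 stood at the low end.
The difference of -0.11 had a 95% interval of -0.47 to 0.26.
Of its 7 probe sets 2 lay in the lowest 25% of all probe sets by level, and 1 of these, at a mean of 5.01, differed by -0.53.
Without dim probe sets Fdps differed by -0.04, with the median over probe sets by 0.01 and with the brightest one by 0.08, so the sign of its difference depended on how its probe sets were combined.
Leaving out single animals gave -0.26, -0.01 and -0.04 for miR-143DOX replicates 1, 2 and 3, and -0.01 and -0.19 for control replicates 2 and 3.

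Idi1, the isomerase that turns isopentenyl diphosphate into its reactive form, measured 10.38, 10.24 and 10.41 in miR-143DOX and 9.79, 10.81 and 10.19 in control replicates 1 to 3.
The transgenic arrays lay close together, inside the range of the controls, at a difference of 0.08 with a 95% interval of -0.39 to 0.55.
The low value of control replicate 1 came mostly from 1 of 9 probe sets, which read 5.76 there and at least 9.10 in the other 5 arrays, and which differed by 0.87.
Without it control replicate 1 stood at 10.29 and the difference was -0.02.
The 9 probe sets carry identifiers in separate runs of 6 and 3. The run of 3 differed by -0.02, and the run of 6 by -0.01 once the deviating probe set was left out.
Whether both runs read Idi1 or a near-identical copy was not tested.
Leaving out control replicate 1 turned the gene to -0.16 and control replicate 2 to 0.35. Dropping transgenic replicates 2 and 3 gave 0.13 and 0.05, and dropping control replicate 3 gave 0.04.

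The late enzymes among the 7 genes stood lower as single genes and nearly probe set by probe set.
Sqle, squalene epoxidase, which sets the first oxygen on squalene and is a control point of the pathway, measured 9.58, 9.34 and 9.75 in miR-143DOX and 10.11, 9.81 and 10.08 in control replicates 1 to 3.
Every transgenic array lay below every control array, with a gap of 0.06 between miR-143DOX replicate 3 and control replicate 2.
The difference was -0.44 with a 95% interval of -0.78 to -0.11, which is 0.735-fold (interval 0.584 to 0.924), and limma's adjusted p over all genes was 0.9997, the value all 7 genes had.
All 13 of its probe sets lay lower, from -0.20 to -0.91, and 7 of them did not overlap between the groups, against 4.57% of all probe sets.
With each array left out in turn the difference ran from -0.54 to -0.34, and with the median over probe sets it was -0.61.
In size it was larger than the difference of 98.3% of the genes tested.

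Cyp51, lanosterol 14-alpha-demethylase, measured 9.36, 9.13 and 9.54 in miR-143DOX and 9.83, 9.65 and 9.57 in control replicates 1 to 3.
The groups were separate, but only by 0.03, between miR-143DOX replicate 3 and control replicate 3.
The difference was -0.34 with a 95% interval of -0.67 to -0.02, or 0.789-fold (interval 0.630 to 0.987).
All 13 of its probe sets lay lower as well, between -0.19 and -0.60, with 3 that did not overlap, against the same 4.57%.
Sqle and Cyp51 were the 2 of 7 genes whose groups were separate and lower, where 3.73% of all genes tested were, and 0 of 7 were separate and higher, where 3.4% of all were.

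Sc4mol, a methylsterol oxidase that acts soon after Cyp51 and is now named Msmo1, measured 11.72, 11.64 and 12.15 in miR-143DOX and 12.73, 12.19 and 11.97 in control replicates 1 to 3.
Control replicate 1 was far above the other arrays, and miR-143DOX replicate 3 lay above control replicate 3, so the groups overlapped.
The difference was -0.46 with a 95% interval of -0.90 to -0.02, or 0.728-fold (interval 0.536 to 0.989).
Each of its 5 probe sets lay lower, from -0.33 to -0.61, and 0 of them separated the groups.
It was -0.24 without control replicate 1.

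**Figure D2:**
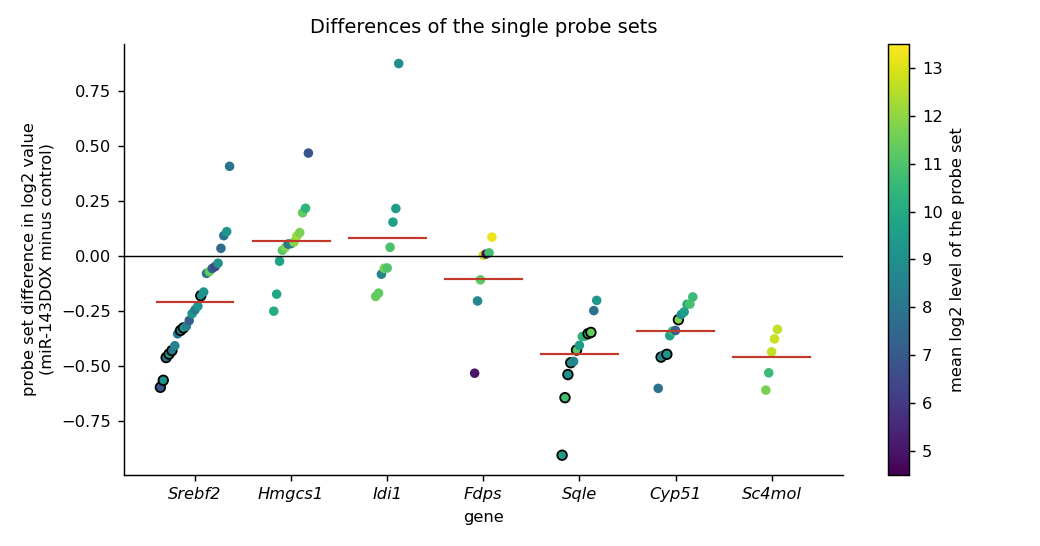
Difference of each probe set in log2 value, miR-143DOX minus control (vertical axis), by gene, with colour for the mean log2 level of the probe set, a black rim where the 3 arrays of each group do not overlap, and a red line for the difference of the gene. All 31 probe sets of Sqle, Cyp51 and Sc4mol lie below 0, and the highest point, 0.87 in Idi1, is the probe set with 1 deviating array.

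Counted over the 7 genes, 63 of 85 probe sets lay below 0 and 18 were lower without overlap, while of all probe sets with 1 gene symbol 49.3% lay below 0 and 4.57% were lower without overlap.
Probe sets of a gene share the same RNA and are not replicates, so these counts describe how evenly a difference lay along a transcript.
In Sqle, Cyp51 and Sc4mol it lay in 1 direction throughout, in Srebf2 in most of the transcript, and in Fdps, Idi1 and Hmgcs1 it was mixed.

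The 7 genes followed more than 1 pattern over the 6 arrays.
Srebf2, Sqle, Cyp51 and Sc4mol went together, with Pearson r of 0.72 to 0.92 between them (6 arrays, a description with no test), and in all 4 control replicate 1 was the highest array.
Hmgcs1 and Fdps went together at r = 0.90, and had miR-143DOX replicate 1 as their highest array.
Between these groups r ran from -0.25 for Srebf2 with Hmgcs1 to 0.34 for Cyp51 with Fdps.
Idi1 stood apart, at r = -0.78 with Srebf2 and 0.36 with Fdps, but without the deviating probe sets these were -0.36 and 0.55.
The groups of animals are part of these values. With each group centred on its own mean, r was 0.96 for Hmgcs1 with Fdps, 0.88 for Cyp51 with Sc4mol, 0.75 for Sqle with Cyp51 and 0.43 for Srebf2 with Cyp51.

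**Figure D3:**
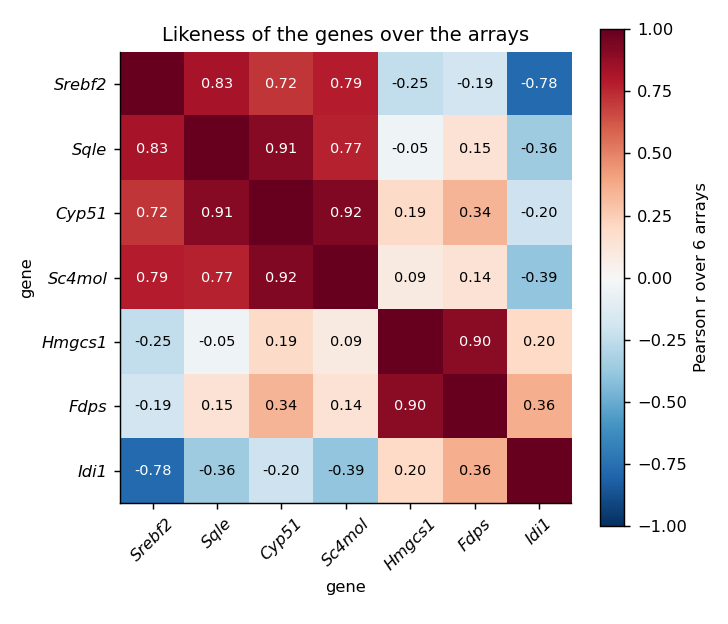
Pearson r between each pair of the 7 genes over the 6 arrays (colour and printed value), with genes on both axes in the same order. Srebf2, Sqle, Cyp51 and Sc4mol form a block of 0.72 to 0.92, Hmgcs1 and Fdps reach 0.90, and Idi1 with Srebf2 has the lowest value, -0.78.

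The mean of the 7 genes' deviations from their own means was lowest in miR-143DOX replicate 2, at -0.30, and highest in control replicates 1 and 2, at 0.18 and 0.16, with the other 3 arrays between -0.04 and 0.02. This mean combines genes that followed the different patterns above. The deviating probe sets of Idi1 and Srebf2 were kept in it, and Idi1 entered at -0.51 in control replicate 1.
Genes were ranked by likeness to this mean profile, skipping predicted genes and clones (Gm or LOC numbers, Rik names, names starting with a digit). Of the rest, those most like it over the 6 arrays were Golt1b, Tmed2, Rbks, Elp3 and Samd5. Golt1b and Tmed2 are of vesicle traffic between the endoplasmic reticulum and the Golgi, Rbks encodes ribokinase, and Elp3 is of the Elongator complex.
Their r was 0.99 for Golt1b and Samd5 and 0.98 for Tmed2, Rbks and Elp3. In all, 114 of 15305 genes exceeded 0.9 over so few arrays.

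The other enzymes of the pathway came from a list of 13, of which 11 had probe sets named for them alone and passed the filter on dim genes.
Of the 11, 8 lay below 0 and 3 above, with a median of -0.10 and a range of -0.28 to 0.25, and 0 passed 5% FDR or an unadjusted p under 0.05.
Fdft1, squalene synthase, which stands between Fdps and Sqle, measured 9.91 ± 0.10 in miR-143DOX against 10.20 ± 0.30 in control (SD, n = 3 each), a difference of -0.28 (95% interval -0.64 to 0.07).
Dhcr7, which makes the last step to cholesterol, measured 9.62 ± 0.11 against 9.77 ± 0.07. It was the only one of the 11 whose groups were separate, and it was lower, where 3.73% of all genes tested were separate and lower.
Pmvk, the kinase that phosphorylates mevalonate phosphate, differed by 0.25, with miR-143DOX replicate 1 highest at 8.22, and the isomerase gene Ebp by -0.13.
Other late enzymes lay near 0, with -0.11 for Lss, the cyclase that makes lanosterol, -0.01 for Tm7sf2, -0.10 for Nsdhl, which acts with Sc4mol, -0.06 for Hsd17b7 and 0.01 for Sc5d.
The enzymes that act between and after Sqle, Cyp51 and Sc4mol had smaller differences, but with wide intervals. Those of Lss (95% interval -0.59 to 0.37) and Hsd17b7 (-0.59 to 0.48) include the differences of all 3 genes. Whether these genes differ from each other in response was not tested.

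**Figure D4:**
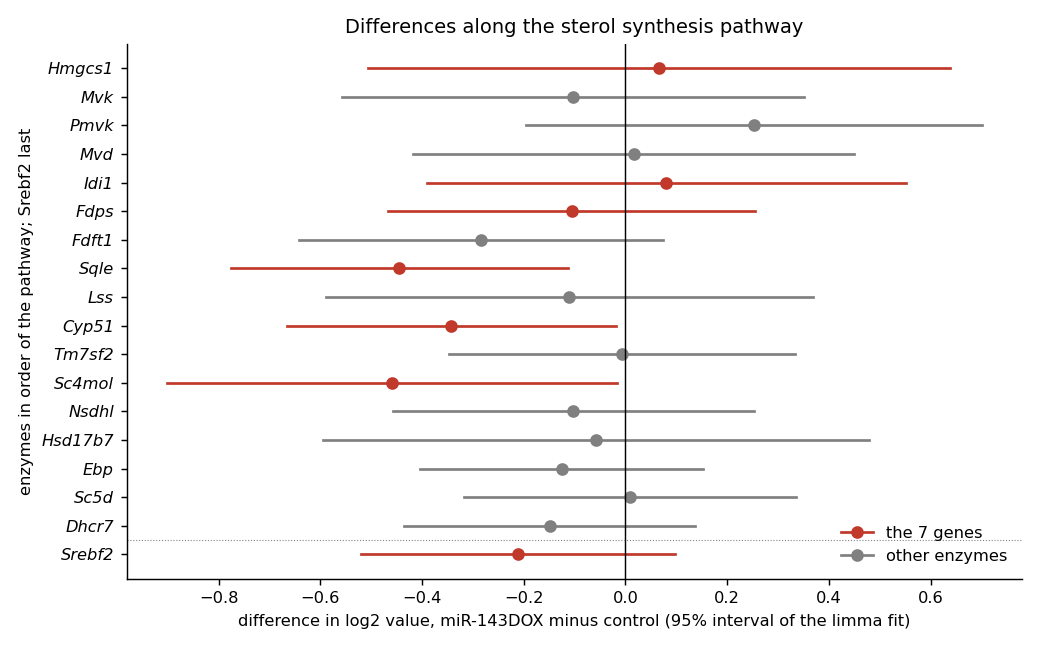
Difference in log2 value, miR-143DOX minus control (horizontal axis), with the 95% interval of the limma fit, for sterol synthesis enzymes in pathway order from top to bottom and Srebf2 at the bottom; red marks the 7 genes and grey the other enzymes. The intervals of Sqle, Cyp51 and Sc4mol end below 0, at -0.11, -0.02 and -0.02, and all others include 0.

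Genes that sense sterols and process SREBP2 were measured for 9 of 10 listed, with 4 above 0 and 5 below, a median of -0.01 and 0 at an unadjusted p under 0.05.
Scap, the escort that carries SREBP2 to the Golgi, differed by 0.01, and Insig1, which holds it back and is itself an SREBP target, by 0.03.
Insig2, the other retention protein, measured 11.41 ± 0.53 in miR-143DOX against 10.82 ± 1.26 in control (SD, n = 3 each), with 9.38 in control replicate 1 and at least 10.95 in every other array.
That array is the one in which Srebf2, Sqle, Cyp51 and Sc4mol were highest. It also had the highest value of the clock genes Dbp minus Arntl, given below, and a link between these was not tested.
Erlin1, which takes part in the sterol-driven breakdown of membrane proteins, differed by -0.27, its partner Erlin2 by -0.07, Mbtps2, a protease that cuts SREBP2 free, by -0.05, and Srebf1, for the related factor SREBP1, by -0.01.
Among 4 other SREBP2 targets 2 lay above 0 and 2 below, with 0.26 for Stard4, a carrier of cholesterol, -0.20 for Tmem97, 0.05 for the ketone-using synthetase Aacs and -0.03 for Rdh11, and a median of 0.01.

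Of 8 listed genes of lipoprotein uptake and lysosomal cholesterol release, 7 were measured, with 5 below 0, a median of -0.14 and 0 at an unadjusted p under 0.05.
Scarb1, the receptor that takes cholesterol from HDL, measured 9.56 ± 0.05 in miR-143DOX against 9.83 ± 0.13 in control, and Npc2, which carries cholesterol inside lysosomes, 7.14 ± 0.13 against 7.37 ± 0.04 (SD, n = 3 each). Both were lower in every transgenic array, 2 of the 7, where 3.73% of all genes tested were.
Lrp1, a large receptor of remnant lipoproteins, differed by -0.23 and Lipa, the lysosomal lipase that frees cholesterol from its esters, by 0.12, each with overlap.
Of 9 genes of LXR sensing, efflux and esterification 7 lay below 0, with a median of -0.08. Soat2, which esterifies cholesterol in hepatocytes, was higher in every transgenic array, at 8.49 ± 0.12 against 8.27 ± 0.05. It was the only 1 of the 9 to separate the groups, where 3.4% of all genes tested were separate and higher. The exporter gene Abca1 differed by -0.29, Lcat by -0.14 and the LXR gene Nr1h2 by 0.13, with overlap.
Of 9 genes of the branches that leave the pathway after farnesyl diphosphate 7 lay below 0, with a median of -0.05. The largest were -0.26 for Pdss1, of ubiquinone synthesis, 0.21 for the prenyltransferase subunit gene Pggt1b, -0.18 for Ggps1 and -0.18 for Coq2.
In each of these lists 0 genes passed 5% FDR over all genes.

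Some features of the animals and cells moved with single arrays, and their part in the results was not tested.
The clock genes Dbp and Arntl, which peak at opposite times of day, gave the highest Dbp minus Arntl in control replicate 1 (4.52) and the lowest in miR-143DOX replicate 1 (-1.25), with 0.90 and 3.00 in miR-143DOX replicates 2 and 3 and 0.26 and 0.85 in control replicates 2 and 3.
Control replicate 1 is the array in which Sqle, Cyp51 and Sc4mol were highest, and miR-143DOX replicate 1 the one in which Hmgcs1 and Fdps were. Other late enzymes differed in this, with Hsd17b7 and Ebp highest in control replicate 1. Lss, Tm7sf2, Nsdhl and Sc5d were highest in miR-143DOX replicate 1, and Dhcr7 in control replicate 2. Early enzymes differed as well. Mvk (8.48) and Mvd (8.07) were highest in control replicate 1, Pmvk in miR-143DOX replicate 1 and Idi1 in control replicate 2. Fdft1, which stands between Fdps and Sqle, was highest in control replicate 1.
Without both arrays the differences were -0.40 for Sqle, -0.28 for Cyp51, -0.18 for Sc4mol, -0.09 for Srebf2, -0.18 for Hmgcs1, -0.27 for Fdps and -0.17 for Idi1, and 0 of 7 had an unadjusted p under 0.05.
The 6 hepatocyte markers had mean log2 levels of 12.61 to 12.67 in miR-143DOX and 12.55 to 12.77 in control arrays.
Sinusoidal endothelium markers lay below 0 for 6 of 6, with mean levels of 7.57 to 8.12 in miR-143DOX and 7.90 to 8.07 in control, lowest in miR-143DOX replicate 2, where Sqle, Cyp51 and Sc4mol were lowest too. Of these only Clec4g was lower in every transgenic array (-0.37, 95% interval -0.68 to -0.06), where 3.73% of all genes tested were, and Pecam1 differed by -0.02. Of the markers of other cell types, the hepatocyte marker Apoa1 was separate and lower (-0.15). The stellate cell marker Pdgfrb was separate and higher (0.23), where 3.4% of all genes tested were.
Kupffer cell markers lay above 0 for 5 of 6, at 7.27 to 7.68 against 7.33 to 7.49, stellate cell markers for 4 of 6, at 6.10 to 6.44 against 6.19 to 6.27, cholangiocyte markers for 3 of 4, at 5.65 to 5.78 against 5.54 to 5.77, and the 3 leukocyte markers measured for 3 of 3, at 5.40 to 5.56 against 5.17 to 5.48. The leukocyte marker Cd79a and the cholangiocyte marker Epcam lay under the filter on dim genes (5.06) and were not tested. Cd79a differed by 0.42, and the other leukocyte markers Ptprc and Cd3e by 0.06 and 0.04.
In such bulk samples fewer cells of a type and less RNA per cell cannot be told apart.

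**Figure D5:**
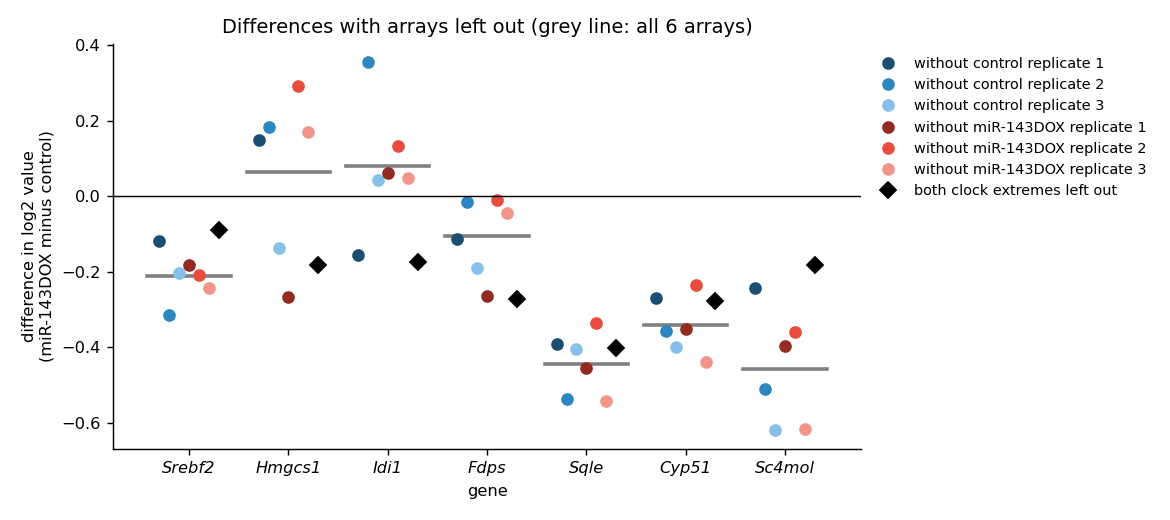
Difference in log2 value, miR-143DOX minus control (vertical axis), of each of the 7 genes with 1 array left out (circles, by array), with both arrays at the extremes of Dbp minus Arntl left out (diamonds), and with all 6 arrays (grey line). Srebf2, Sqle, Cyp51 and Sc4mol stay below 0 in all of these, Fdps does too, and Hmgcs1 and Idi1 lie on both sides.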

How the data were processed

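The deposited table held 234873 probe sets in 6 columns, 1 per mouse. Its values are on a log2 scale as deposited (1.60 to 15.2), the base being taken from that span. Per the submitters' processing notes Partek was used, with no version given. Not given in the sources used here are the authors' background correction, normalization and summarization.

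The arrays' 95th percentiles differed by up to 0.135 and they correlated at 0.936 to 0.954, so values were quantile normalized. A gene was the mean of probe sets annotated to it alone. The 25% of genes with the lowest means (under 5.06) were left out. All 7 genes passed. limma 3.58.1 (R 4.3.3, lmFit and eBayes on group, two-sided) was run on 15312 genes, with p-values adjusted over all by Benjamini-Hochberg. The fit was run on simulated data with planted changes larger than the differences of the 7 genes, so that run does not bear on differences of their size. No detection call was used, and the number of arrays limits the precision (median residual SD 0.183).

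The genes and lists were chosen with earlier results of these data known, so no list was tested. Named were the 7 genes, up to 4 genes of a list by unadjusted p, and Dbp and Arntl. Also named were the 5 genes most like the mean profile once predicted genes and clones were skipped. Nsdhl, Lss, Tm7sf2, Hsd17b7, Sc5d, Mvk, Mvd, Scap, Insig1 and Srebf1 were added for their place in the pathway after their values were seen. Single marker genes of cell types were also named after their values were seen. Other settings are given at the end. RefSeq promoters matched 5 of 7 genes by symbol, with none for Sqle and Fdps.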

Additional observations from a re-analysis of the deposited data

How the results depend on the processing

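Over 18 other settings, the 7 genes' median difference lay below 0 in 18, between -0.36 (median over probe sets) and -0.07 (brightest probe set), and between -0.31 and -0.16 with single arrays left out. In all 18, Srebf2, Sqle, Cyp51 and Sc4mol lay below 0, and 0 of 7 genes passed 5% FDR. Genes passing over all those tested numbered 0 in 17 settings, and 1 when the arrays at the extremes of Dbp minus Arntl were both dropped (Dcpp1, named after its values were seen, at -1.45). Signs turned for genes near 0. Hmgcs1 lay between -0.27 and 0.29 with single arrays left out, below 0 when miR-143DOX replicate 1 (-0.27) or control replicate 3 (-0.14) was dropped, and at -0.18 with the extreme arrays dropped. Fdps turned to 0.013 with the median over probe sets and 0.084 with the brightest. Idi1 lay between -0.16 and 0.35 with single arrays left out, below 0 when control replicate 1 was dropped, and turned to -0.057 with the brightest probe set, -0.17 with array weights, -0.17 with the extreme arrays dropped and -0.018 without deviating probe sets, a setting chosen after seeing the data. Genes of the 7 at an unadjusted p under 0.05 numbered 3 with all arrays, 0 with the brightest probe set, with the extreme arrays dropped or with miR-143DOX replicate 2 dropped, and 1 when replicate 1 of either group was dropped. The cause of these shifts was not tested. Replicate numbers were shared between groups, but the deviations of same-numbered arrays correlated at 0.11, 0.05 and 0.30, not all over 0.1, so they were not taken as pairs; 2 of 3 miR-143DOX arrays correlated best with the control array of their own number. With the replicate block the median stayed at -0.21, 0 genes passed 5% FDR and 2 of 7 had an unadjusted p under 0.05.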
